A study of Homo sapiens with 6 samples.

Results

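The genes described here carry vitamin A and vitamin D metabolites through a cell: STRA6, CRABP1, CRABP2, RDH10, DHRS3, ALDH1A3 and CYP26B1 for retinoids, CYP24A1 for vitamin D, and TGM2, a widely used retinoic acid target. They were picked by symbol with values of these same libraries in view, so their differences between the groups are a description and carry no test. Of the 9 symbols, 8 have a row in the deposited table of 16229 genes. CRABP1 was not analysed here. All 8 were above the filter on low counts that left 12604 genes for testing, STRA6 only through its GCA libraries.

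The libraries came from a line labelled MC38, described in the labels as wild-type colorectal cancer cells. The GCA group (3 libraries) was kept 24 hours with GCA, read here as the bile acid glycocholic acid named in the series' title, at a dose not given in the sources used here, and the CON group (3 libraries) was kept without it. No vehicle is named and nothing says the libraries stem from separate cultures, so any p-value measures the spread between these libraries alone, possibly a technical one. The name MC38 usually means a mouse line, yet the labels give human and the tables list human symbols, the extraction text speaks of heart tissue, polyA RNA and ribosomal RNA depletion are both named, and the GCA columns are titled fa, which no label spells out.

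Retinol reaches cells bound to plasma retinol-binding protein, and STRA6 is the membrane receptor that lets it in. Inside, RDH10 oxidises retinol to retinal while DHRS3 reduces retinal back to retinol, ALDH1A enzymes oxidise retinal to retinoic acid, and CYP26 enzymes clear the acid. CRABP2 hands retinoic acid to nuclear receptors (RAR, with RXR as partner), which switch on target genes. The active form of vitamin D acts through VDR, another RXR partner, and CYP24A1 inactivates it; in the intestine CYP24A1 is among the best-known VDR targets.

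The 2 genes with the largest fold changes were STRA6 and CRABP2, and the bases upstream of their starts are shown because both genes stood higher with GCA. The sequences are RefSeq's for GRCh38.p14, limited to bases that lie in no GENCODE 29 exon. That of STRA6 is chr15:74212282-74212481 (minus strand), from base -222 to base -23 counted from the outermost of its 5 RefSeq starts. That of CRABP2 is chr1:156705817-156706034 (minus strand), from base -250 to base -33. Capitals mark half-sites of nuclear receptor elements: a match of GGGTCA on the strand shown, and one of AGGTCA on the other strand, which is printed as TGACCT.
STRA6: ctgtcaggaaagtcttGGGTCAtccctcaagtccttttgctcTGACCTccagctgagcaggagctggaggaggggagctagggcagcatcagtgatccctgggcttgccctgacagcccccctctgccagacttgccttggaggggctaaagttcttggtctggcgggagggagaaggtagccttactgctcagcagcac
CRABP2: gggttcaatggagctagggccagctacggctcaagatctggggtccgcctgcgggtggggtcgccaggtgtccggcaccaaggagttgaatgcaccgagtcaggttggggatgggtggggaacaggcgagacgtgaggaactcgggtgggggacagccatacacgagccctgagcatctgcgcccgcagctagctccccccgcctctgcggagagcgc

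Each promoter window of 300 bases (250 before the start, 50 after) was searched on both strands for the half-site AGGTCA, for its variants written AGTTCA and likewise GGGTCA, and for pairs of the form AGNTCA spaced by 2, 3 or 5 bases (named DR2, DR3 and DR5), which can overlap a half-site match. The STRA6 window above held AGGTCA at bases -180 and -22 (the second lies past the printed stretch) and GGGTCA at base -206. Another STRA6 window held AGGTCA at base -124, and the rest of its 5 windows held none of the half-sites. DHRS3 had AGGTCA at base -171 in 1 of its 3 windows. The windows of CRABP2, ALDH1A3 and CYP26B1 held none of the half-sites, and no window of these genes held a DR2, DR3 or DR5. Pairs that hold GGGTCA were not searched. The pairs searched are so rare over all windows that their absence from these few tells little. Over all 35116 windows of this length, 13.8% held AGGTCA, 14.1% GGGTCA and 10.4% AGTTCA. For the 18517 windows of genes in the deposited table these shares were 11%, 14.2% and 7.77%. Over all windows the pairs were found in 0.0541% (DR2), 0.0598% (DR3) and 0.0797% (DR5). Each share is for 1 window and 1 motif, so a gene with 5 windows, like STRA6, is likelier to hold a match. RDH10, CYP24A1 and TGM2 had no entry in the promoter table.

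STRA6 was barely counted in CON and clearly present in GCA. It lies on chromosome 15 from 74179466 to 74212259 (GRCh38.p14). The CON libraries held 5, 2 and 8 raw counts and the GCA libraries 79, 92 and 108, in replicate order as everywhere here, which correspond to 0.278, 0.104 and 0.414 against 3.92, 4.68 and 5.66 CPM (counts scaled to library size). Every GCA library stood above every CON library. The log2 fold change was 4.13 ± 0.38 (SE, n = 3 per group). Summed over each group the counts were 15 and 279, a ratio of 17.8 with a 95% exact interval of 10.6 to 32.3 that covers counting error only. A floor of 3 counts in a library is 0.146 to 0.166 CPM over the plain library total, without the scaling in the CPM values above. CON 2, with 2 counts, lay under it. On the log2(FPKM + 1) scale the STRA6 difference shrank to 0.84, since its FPKM values lie near or under that pseudocount.

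CRABP2 (chromosome 1, 156699606 to 156705784) was the most abundant of the 8 genes. It stood at 289.7, 228 and 217 CPM in CON against 824, 1074 and 1098 CPM in GCA. The groups were far apart, with replicate 1 the highest of the CON and the lowest of the GCA libraries. The mean went from 245 ± 39.2 to 999 ± 151 CPM (SD, n = 3), a log2 fold change of 2.03 ± 0.16 (SE). The paralogue gene CRABP1, which encodes the other cellular retinoic acid-binding protein, is the member without a value.

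**Figure D1:**
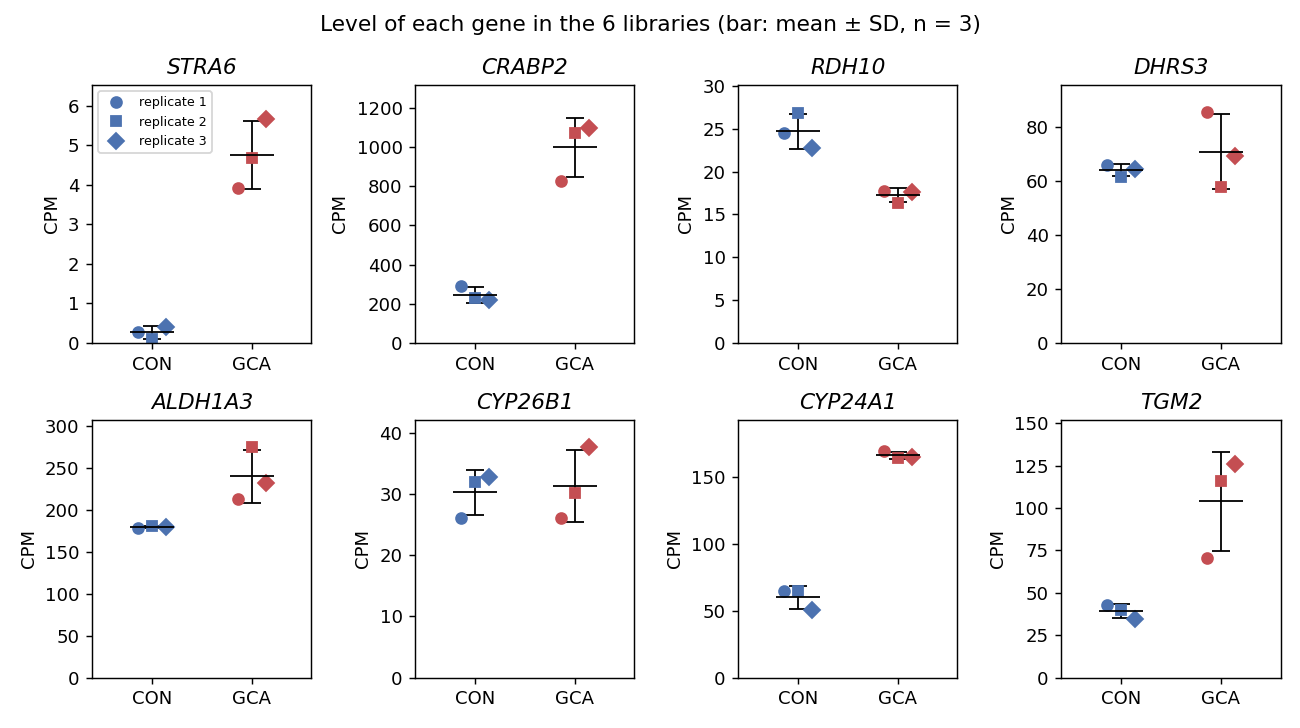
CPM of each of the 8 genes in the 6 libraries, with CON in blue, GCA in red, a marker shape for each replicate number and black bars for the mean ± SD (n = 3). STRA6, CRABP2, ALDH1A3, CYP24A1 and TGM2 were higher in all 3 GCA libraries than in any CON library, RDH10 was lower, and DHRS3 and CYP26B1 overlapped.

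Of the enzymes that make and unmake retinal, RDH10 was lower with GCA while DHRS3 showed no difference beyond its spread. RDH10 (chromosome 8, 73294602 to 73325281), the oxidising enzyme, measured 24.6, 26.9 and 22.7 CPM in CON against 17.8, 16.3 and 17.6 CPM in GCA. It was the only one of the 8 genes below its CON range in every GCA library, and fell by 0.52 ± 0.13 (SE) on the log2 scale. DHRS3 (chromosome 1, 12567910 to 12618210), the reducing enzyme, measured 65.7, 61.5 and 64.4 CPM in CON against 85.3, 57.6 and 69.0 CPM in GCA. Its GCA libraries lay on both sides of the CON values, with replicate 1 the highest, and its log2 difference was 0.15 ± 0.14 (SE). The ratio of RDH10 to DHRS3 within a library, taken on FPKM values and so free of library scaling, was 0.229, 0.267 and 0.216 in CON against 0.127, 0.173 and 0.156 in GCA. These ratios did not overlap, with means of 0.237 ± 0.0265 and 0.152 ± 0.0233 (SD, n = 3). They were not corrected for transcript GC, which is 48.1% for RDH10 and 55.8% for DHRS3. With the GC and length correction given below, the log2 values were -0.41 for RDH10 and -0.12 for DHRS3. Without CON 2 the log2 value of RDH10 was -0.44 and it no longer passed the threshold used for all genes.

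ALDH1A3 (chromosome 15, 100879831 to 100916626), which oxidises retinal to retinoic acid, measured 179, 181 and 179.8 CPM in CON against 213, 274 and 232 CPM in GCA. On CPM the CON libraries were nearly equal, with a coefficient of variation of 0.615% where the median over tested genes was 13.5%. All 3 GCA libraries lay above them. This closeness depends on the scaling: the FPKM of ALDH1A3, which divides by the library total, was 48.4, 55.4 and 54.4 in CON. Its log2 fold change was 0.42 ± 0.13 (SE). It fell short of the threshold in 4 of the fits that left out a library, at 0.43 without CON 2, 0.43 without CON 3, 0.31 without GCA 2 and 0.44 without GCA 3. CYP26B1 (chromosome 2, 72129238 to 72147862), which clears retinoic acid, measured 26.1, 32.0 and 32.8 CPM in CON against 26.1, 30.2 and 37.7 CPM in GCA. Its groups overlapped almost fully, with replicate 1 lowest in both, and the log2 difference was 0.05 ± 0.15 (SE). The ratio of ALDH1A3 to CYP26B1 on FPKM values ran from 7.54 to 9.41 in CON and from 8.47 to 12.5 in GCA, so these groups overlapped.

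CYP24A1 (chromosome 20, 54143538 to 54173986), the enzyme that breaks down active vitamin D, measured 64.7, 64.8 and 50.4 CPM in CON against 169, 164 and 165 CPM in GCA. The GCA libraries were tightly grouped, with a coefficient of variation of 1.71% against a median of 10.2% over tested genes. Its log2 fold change was 1.47 ± 0.13 (SE). TGM2 (chromosome 20, 38127385 to 38168475), a calcium-dependent protein crosslinking enzyme, measured 42.6, 40.1 and 34.7 CPM in CON against 70.8, 116 and 126 CPM in GCA. GCA 1 was well below the other GCA libraries, though still above all of CON. The log2 fold change of TGM2 was 1.41 ± 0.19 (SE).

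Counted together, 5 of the 8 genes were higher and 1 was lower at an adjusted p of 0.05 in edgeR's quasi-likelihood test over all genes, where 36.4% of the 12604 tested genes passed, 18.3% higher and 18.1% lower. The 4 genes STRA6, CRABP2, CYP24A1 and TGM2 were higher by at least 1 on the log2 scale as well, as were 5.21% of tested genes. The groups did not overlap in these same 6 genes, as in 48.5% of all tested genes. The median log2 fold change of the 8 genes was 0.91 and that of all tested genes -0.04. Because these genes were chosen on this contrast, the counts describe them and support nothing further.

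Fold changes moved with GC content over all tested genes (Pearson's r = 0.48 across 12604 genes, which are not independent replicates), and the median transcript GC of the 8 genes was 55.4% against 49.9% over tested genes. STRA6 was the richest at 60.8% and CYP24A1 the poorest at 45.9%. With a correction for GC content and length STRA6 stood at 3.75, CRABP2 at 1.67, CYP24A1 at 1.65, TGM2 at 1.23, ALDH1A3 at 0.38 and RDH10 at -0.41 on the log2 scale, and these 6 stayed past the threshold. DHRS3 and CYP26B1 turned to -0.12 and -0.21, not past it. The correction lowered CRABP2 and raised CYP24A1, so that the 2 values nearly met. Over all genes 29.8% passed with it, 11.4% higher and 18.4% lower.

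**Figure D2:**
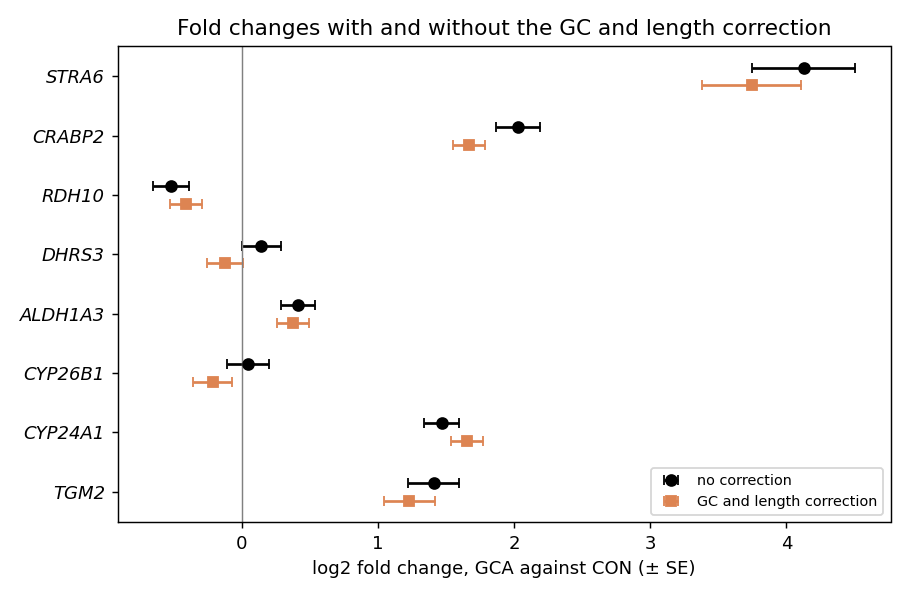
Log2 fold changes of the 8 genes, GCA against CON, with bars of 1 SE, without (black circles) and with (orange squares) the GC and length correction. STRA6 stood at 4.13 and 3.75, and DHRS3 and CYP26B1 crossed 0 with the correction.

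Levels were compared between genes per length, on the authors' FPKM scale. In CON the order was CRABP2 (235 ± 21.7 FPKM), ALDH1A3 (52.7 ± 3.78), DHRS3 (26.8 ± 1.20), CYP24A1 (14.9 ± 1.95), TGM2 (7.56 ± 0.593), CYP26B1 (6.49 ± 1.17), RDH10 (6.35 ± 0.744) and STRA6 (0.0513 ± 0.0309; SD, n = 3 throughout). CYP26B1 differed by less than its own SD from both TGM2 and RDH10, while TGM2 stood above RDH10 in each CON library. In GCA CRABP2 reached 936 ± 143 FPKM and ALDH1A3 68.1 ± 9.37, and CYP24A1 at 40.1 ± 0.615 now stood above DHRS3 at 28.7 ± 5.54. TGM2 followed at 19.5 ± 5.50 FPKM, with its highest library at 23.48 and the lowest of DHRS3 at 23.57, then CYP26B1 at 6.47 ± 1.20, RDH10 at 4.29 ± 0.172 and STRA6 at 0.891 ± 0.162. STRA6, the retinol receptor, was thus the least abundant of the 8 in both groups although its fold change was the largest. The CRABP2 to CYP26B1 ratio on this scale was 30.1 to 50.4 in CON against 132 to 161 in GCA.

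**Figure D3:**
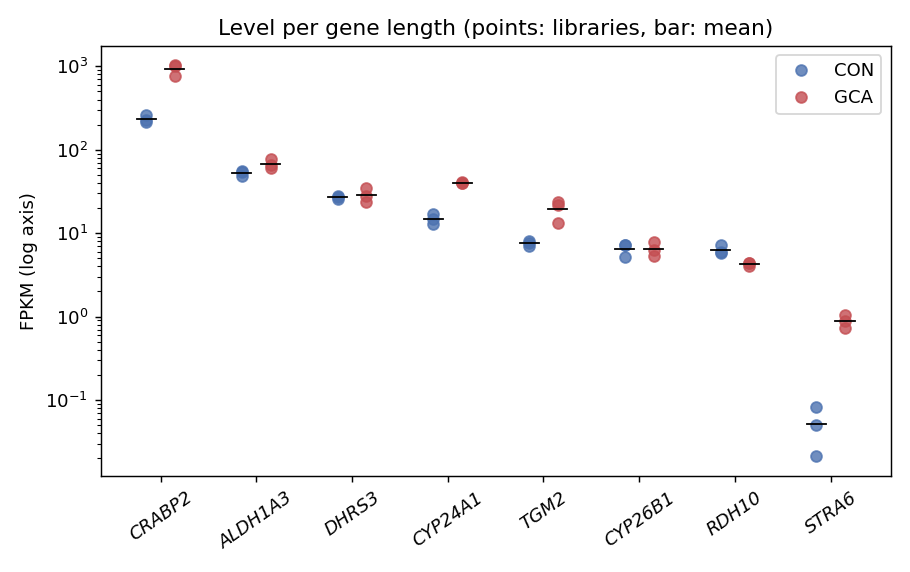
FPKM of the 8 genes on a log axis, in the order of their CON means, with a point for each library and a bar for each mean. CRABP2 was highest and STRA6 lowest in both groups, and CYP24A1 and DHRS3 changed places.

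The rest of the pathway was read from whole lists of its genes, not picked for how they moved, though earlier results of these data were known. Adjusted p-values here are from edgeR's quasi-likelihood test over all genes. Of 62 other retinoid genes listed, 55 had a row and 38 were tested: 6 were higher, 3 were lower and 29 did not pass, with a median log2 fold change of 0.13. This share is below the 36.4% of all tested genes, against which the calls in each list below are to be read as well. With the GC and length correction 4 were higher and 5 lower, and the median was -0.04. The count rose to 14 genes without CON 1 and to 19 without replicate 1 of both groups. Calls over all genes rose in these fits as well, to 6707 of 12740 tested and to 7419 of 12674.

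Among carriers, FABP5, which binds fatty acids and also retinoic acid, was the only one of 4 tested genes to pass (2 did, both lower, with the correction). Its levels were 238, 168 and 168 CPM in CON against 133, 120 and 124 CPM in GCA, and it fell by 0.61 ± 0.15 (SE; adjusted p = 0.00694). Its direction was thus opposite to that of CRABP2. Of the 5 tested storage genes only DGAT1, an acyltransferase that can esterify retinol besides making triglyceride, passed, from 90.7 ± 5.17 to 146 ± 10.9 CPM (log2 0.69 ± 0.12, SE; adjusted p = 0.000800), but with the correction it stood at 0.23 (adjusted p = 0.0696, the highest of its alternatives). PNPLA4, a lipase of the patatin family named after its values were seen, did not pass at 0.28 (adjusted p = 0.1001) and did with the correction, at 0.53 (adjusted p = 0.00402; 0.247 at most over its alternatives).

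Of 11 other tested genes of retinol and retinal interconversion, AKR1B1, an aldo-keto reductase, was the one that passed and rose, from 81.1 ± 8.31 to 123 ± 10.9 CPM (log2 0.60 ± 0.12, SE; adjusted p = 0.00289). RDH5, a retinol dehydrogenase named after its values were seen, had 44, 46 and 51 counts in CON against 68, 63 and 104 in GCA, which did not overlap. Its log2 value of 0.68 ± 0.26 missed the threshold (adjusted p = 0.0558). It passed when blocked by replicate number (adjusted p = 0.0432) or tested with DESeq2 (adjusted p = 0.0498), and was 0.23 with the correction (adjusted p = 0.508, the highest of its alternatives). The other ALDH1A genes were low. ALDH1A1 measured 7.74, 6.47 and 6.78 CPM in CON against 5.95, 3.61 and 4.82 CPM in GCA, a log2 value of -0.54 ± 0.21 (adjusted p = 0.0630), which passed with the replicate number as a block (adjusted p = 0.0305). ALDH1A2 had 1, 0 and 0 counts in CON against 0, 6 and 3 in GCA and was not tested. CYP26A1 is the retinoic acid hydroxylase gene best known as a retinoic acid target. It had 7, 7 and 14 counts in CON against 12, 23 and 14 in GCA. CYP26A1 was above the filter on low counts only through its GCA libraries, and its log2 value was 0.74 ± 0.44 (adjusted p = 0.203).

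Of 7 tested receptors and corepressors, RARG and RXRA passed, where 36.4% of all tested genes did. The receptor gene RARG went from 112 ± 7.63 to 156 ± 14.97 CPM (log2 0.47 ± 0.12, SE; adjusted p = 0.00933) and lost the call with the correction, at 0.08 (adjusted p = 0.506), and without GCA 3 (adjusted p = 0.0669; at most 0.506 over its alternatives). RXRA, the common partner receptor, had a log2 value of 0.60 ± 0.11 that the correction took to 0.16 (adjusted p = 0.195, the highest of its alternatives). RARA stood at 0.28 (adjusted p = 0.0774) and RXRB at 0.16 (adjusted p = 0.281), and both turned negative with the correction, at -0.15 and -0.19. RARB, the receptor gene that retinoic acid itself is known to induce, had 1, 4 and 0 counts in CON against 0 in each GCA library, which for GCA allows up to 3 counts a library.

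Retinoic acid target genes other than the 9 symbols showed 2 higher and 2 lower among 12 tested, with a median of -0.10. That share is close to the 36.4% of all tested genes that passed. PLAAT4, known as a retinoic acid-inducible gene and named after its values were seen, was under the filter, with 1, 1 and 2 counts in CON against 8, 34 and 32 in GCA. These counts did not overlap, and GCA 1 was well below the other GCA libraries. GPRC5A, a membrane receptor first known as retinoic acid-induced, rose from 221, 228 and 239.8 CPM to 453, 464 and 483 CPM. Its log2 fold change was 1.02 ± 0.12 (SE; adjusted p = 6.83e-05), and 1.06 with the correction. TNFAIP2 rose from 71.6 ± 3.44 to 132 ± 11.95 CPM (log2 0.89 ± 0.12, SE; adjusted p = 0.000170), and the correction left 0.46. The homeobox gene MEIS2 fell by 0.83 ± 0.21 and RAI14 by 0.56 ± 0.14 (adjusted p = 0.00905 and 0.00817). Both lost the call with the correction (adjusted p = 0.0509 and 0.0595) and without GCA 3 (0.0534 and 0.0514), and MEIS2 also without CON 3 (0.0506), against highest values of 0.0568 and 0.0595 over the alternatives.

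On the vitamin D side, 11 of 17 other genes with a row were tested, of which 3 were higher with edgeR and 0 lower, against 4 with an unadjusted p under 0.05 and 3 with DESeq2, with a median log2 fold change of 0.20 (0.05 with the correction). Of the 5 tested genes of activation, transport and the receptor, 0 passed with edgeR or with DESeq2, and 0 had an unadjusted p under 0.05. VDR, the vitamin D receptor gene, measured 22.2, 21.3 and 18.4 CPM in CON against 19.4, 18.1 and 18.3 CPM in GCA, a log2 value of -0.15 ± 0.14 (adjusted p = 0.417). CYP27B1, which makes the active hormone, measured 12.4, 12.6 and 14.96 CPM in CON against 15.9, 15.2 and 16.4 CPM in GCA, which gave 0.25 ± 0.15 on the log2 scale (adjusted p = 0.198) and -0.044 once corrected. Of 6 tested VDR targets besides CYP24A1, 3 rose, where 18.3% of all tested genes were higher. TRPV6, an epithelial calcium channel, had counts of 12, 16 and 13 in CON against 37, 39 and 36 in GCA (log2 1.38 ± 0.31, SE; adjusted p = 0.00424). IGFBP3 had 13, 29 and 33 in CON against 63, 75 and 65 in GCA (log2 1.38 ± 0.31, SE; adjusted p = 0.00436). LRP5, a Wnt coreceptor, rose by 0.61 (adjusted p = 0.00262), or 0.17 with the correction (adjusted p = 0.249, the highest of its alternatives). SPP1, which encodes osteopontin and is named after its values were seen, stood at 0.93 (adjusted p = 0.0736) and passed with the correction, at 1.13 (adjusted p = 0.0436; 0.219 at most over its alternatives). Without CON 1 the count of other vitamin D genes was 5, and 6 without replicate 1 of both groups. Over all genes these fits called 6707 of 12740 and 7419 of 12674.

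TGM2 was the only gene of its family at an appreciable level. The 5 other transglutaminase genes with a row summed to 3.26 to 3.90 CPM in CON against 3.56 to 4.17 CPM in GCA, and 0 of the 2 tested passed with edgeR, with DESeq2 or at an unadjusted p under 0.05.

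**Figure D4:**
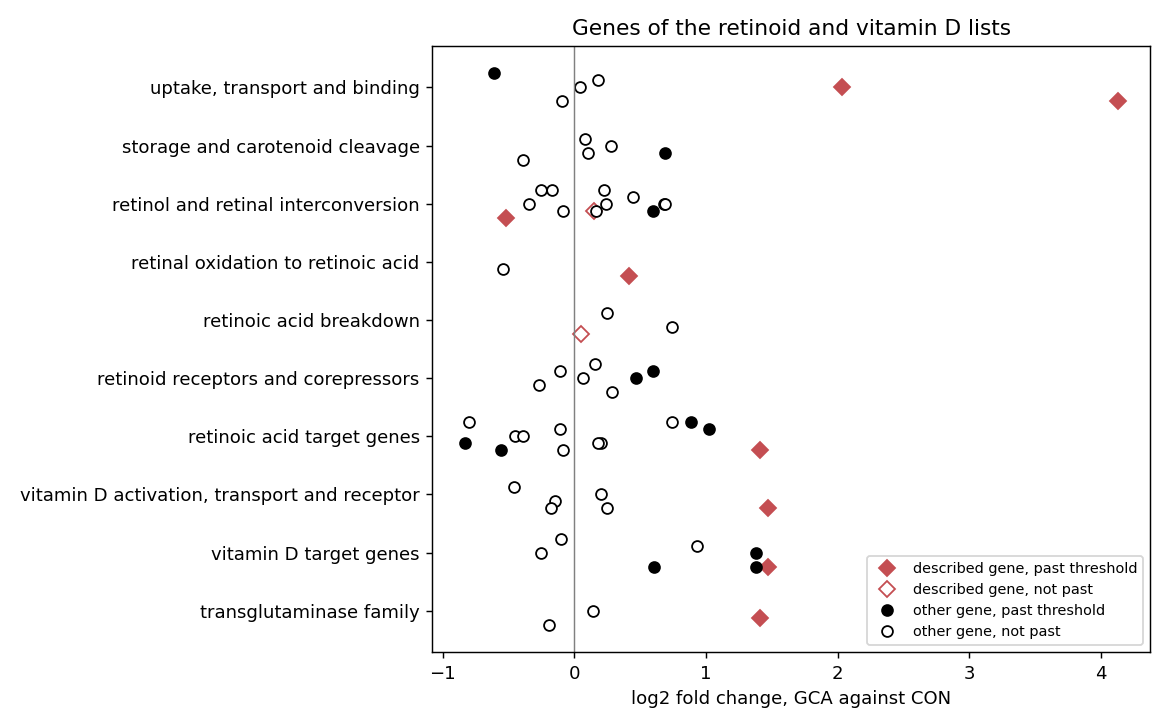
Log2 fold changes, GCA against CON, of every tested gene in each list, with the 8 described genes as red diamonds, the others as black circles and filled symbols for those past an adjusted p of 0.05. STRA6 at 4.13 and CRABP2 at 2.03 lay to the right of all other genes plotted, and 29 of the 38 other retinoid genes are open.

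The genes next to each member were taken from RefSeq's order, up to 3 protein-coding genes on either side, a choice made after values around STRA6 had been seen. Of 48 such genes 28 were tested, and 5 were higher and 2 lower, so the share that was higher was close to the 18.3% of all genes. At STRA6 both immediate neighbours were among the 5. ISLR, which ends 2595 bases away on the opposite strand (74173710 to 74176871), had 0 counts in every CON library and 15, 22 and 15 in GCA, at least 5.54-fold higher against a floor of 3 counts in each CON library (adjusted p = 0.000398). CCDC33 overlaps STRA6 by 9261 bases on the opposite strand, and had 0, 0 and 2 counts in CON against 15, 19 and 12 in GCA. Its ratio of summed counts was 22.0 (95% exact interval 5.77 to 187, counting error only; adjusted p = 0.00124). ISLR and CCDC33 were above the filter on low counts only through their GCA libraries, so their adjusted p-values are a description. CCDC33 exons hold 540 of the 7690 exon bases of STRA6 in GENCODE 29 and ISLR exons none. The strand setting of the counting is not given, so STRA6 and CCDC33 reads from the shared bases cannot be told apart. Nor can the strand of the reads counted in ISLR exons be told, although these share no bases with STRA6 exons. Farther out, SEMA7A (197 kb away) had a log2 value of 0.27 (adjusted p = 0.1001), and ISLR2, GOLGA6A and CYP11A1 were under the filter.

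Beside TGM2, TTI1 fell by 0.94 ± 0.14 (SE; adjusted p = 0.000388), from 39.6 to 20.6 CPM, and RPRD1B by 0.45 (adjusted p = 0.0187), opposite to TGM2. DYSF, which lies 442 kb from CYP26B1, rose by 1.49 ± 0.23 (SE, adjusted p = 0.000473) while CYP26B1 itself stood at 0.05. NES (22.2 kb from CRABP2) and ZNF217 (546 kb from CYP24A1) had log2 values of 0.45 and 0.44 (adjusted p = 0.0315 and 0.0420). The calls of RPRD1B and NES were lost with the correction (adjusted p = 0.0815 and 0.582). Those of RPRD1B (without CON 2, CON 3 or GCA 3), NES (without CON 3, GCA 1 or GCA 2) and ZNF217 (without CON 1, CON 3, GCA 1 or GCA 2) were also lost when a library was left out, with adjusted p up to 0.0917, 0.121 and 0.2003. On log2(FPKM + 1) none of the 3 passed, with library size only neither NES nor ZNF217 did, and with upper-quartile scaling ZNF217 did not.

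**Figure D5:**
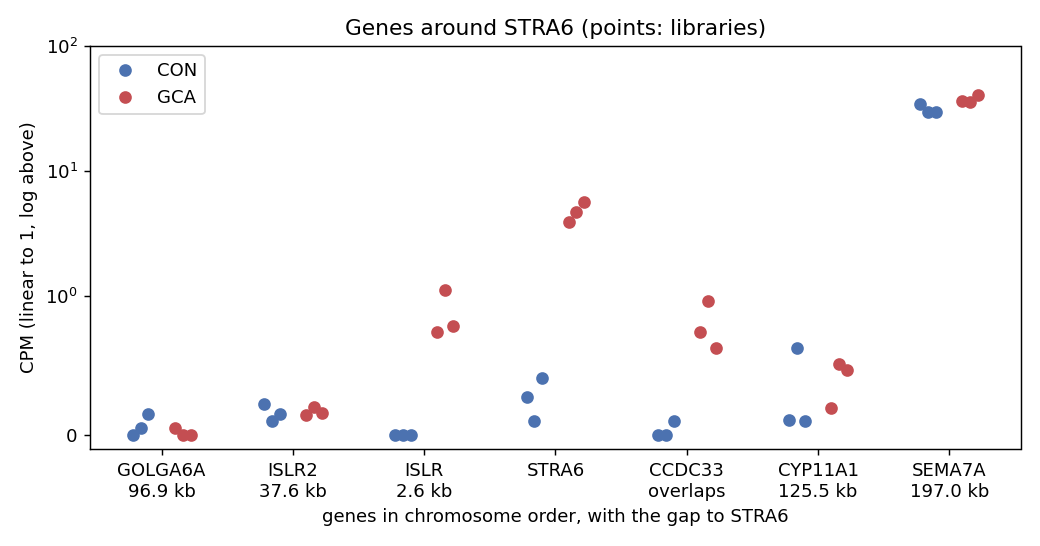
CPM of STRA6 and its neighbouring genes in chromosome order, with the gap to STRA6 under each name, a point for each library and an axis that is linear up to 1 and logarithmic above. ISLR and CCDC33 rose from 0 to 2 counts a library to 12 to 22, like STRA6, while SEMA7A stood at a mean of 31.2 CPM in CON and 37.6 CPM in GCA.

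Over the 6 libraries the genes most like CRABP2 by Pearson's r of log2 CPM were ACY3, TNFSF9 and IFI6 (r = 0.999 each), and those most like STRA6 were RING1, PSTK and CA11 (r = 0.998 each). As 117 and 54 genes had r above 0.99, and the split into 2 groups is in each of these correlations, they describe a profile over libraries only.

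Of 10 colorectal epithelial markers 8 were tested, led by KRT8 (4957 CPM in CON, 6994 in GCA) and KRT19 (2015 and 2265 CPM), and CDX1 and CEACAM5 were under 1 CPM in every library. Summed, these markers ran from 7918 to 10110.5 CPM in CON against 11132 to 12703 in GCA. Of the 8 tested, 4 passed upward, where 18.3% of all tested genes did. With the correction 3 were higher and 1 lower: KRT8 lost its call (log2 0.50 before and 0.33 after, adjusted p = 0.0554; up to 0.166 over its alternatives), as it also did without CON 2, CON 3, GCA 2 or GCA 3, and KRT19 went from 0.17 to -0.35 (adjusted p = 0.0406). Markers of other cells were low: summed leukocyte markers ran from 14.4 to 25.9 CPM over all libraries, fibroblast from 11.4 to 16.7, cardiomyocyte from 21.9 to 41.6 and endothelial from 0.621 to 2.49, with 5 of 6, 5 of 6, 5 of 6 and 3 of 4 genes under 1 CPM everywhere. The cardiomyocyte sum is nearly all TNNI3, which went from 23.8 to 38.1 CPM, the fibroblast sum nearly all COL1A1 (11.1 and 15.03 CPM) and the leukocyte sum nearly all CD68 (22.3 and 18.2 CPM). The endothelial list was led by VWF (0.615 and 1.68 CPM). VWF, COL1A1, TNNI3 and DES each passed the test upward. With the correction VWF still did, while COL1A1, TNNI3 and DES stood at 0.05, 0.08 and 0.07 on the log2 scale and did not (adjusted p = 0.803, 0.689 and 0.776), and those of COL1A1 and DES were also lost when single libraries were left out. On log2(FPKM + 1) VWF did not pass. VWF had 7, 17 and 11 counts in CON against 30, 38 and 31 in GCA. It was above the filter on low counts only through its GCA libraries, so its calls are a description. Means of PDGFRB, PECAM1, LYZ and TNNT2 were under 1 CPM. Stratified epithelium markers summed to 51.3 to 74.0 CPM, nearly all KRT10, with KRT5 at 0.964 and 2.83 CPM. Markers of retinoid-storing and retinal pigment cells, led by DES (7.25 and 10.9 CPM) and LRAT (5.32 and 4.07 CPM), summed to 10.4 to 16.7 CPM. In bulk RNA, fewer cells of a type and less RNA per cell cannot be told apart, and the part of these markers in the values above was not tested.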

How the data were processed

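The authors deposited raw counts per gene symbol and FPKM values for 16229 genes in 6 libraries. Each deposited FPKM value equals the count over the product of library total and gene length (tolerance 1e-09, relative, met by 16229 of 16229), so it is no separate measurement. The build was hg38 and the tools included HTSeq 0.11.2, HISAT2 2.2.1.0 and fastp 0.20.1, per the submitters' processing notes. Not given in the sources used here were the strand setting, the annotation release and filters. Total counts per library ran from 18057453 to 20531612.

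GCA was compared with CON by edgeR 4.0.16 in R 4.3.3 (TMM, filterByExpr with a minimum count of 10 and minimum total of 15, glmQLFit, glmQLFTest), with Benjamini-Hochberg adjustment over 12604 genes at 0.05. An SE is the log2 fold change over the square root of F. CPM uses TMM-scaled library sizes. The correction takes as offset, for each library, a spline of log2 CPM (5 degrees of freedom each) on transcript GC (GENCODE 29, known for 99.2% of genes) and length. Only the edgeR fit without block or correction was tested on simulated counts, which held no GC trend and no replicate structure. Alternatives were other scalings and filters, DESeq2 1.42.0, limma 3.58.1 on log2(FPKM + 1), the correction, the replicate block and leaving libraries out.

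The members and lists were chosen with earlier results of these data known. Besides the members, the text names 10 receptors and enzymes, up to 4 genes past the threshold per list, the 3 genes most like the member highest in FPKM and the member with the largest fold change, and the 2 most abundant genes per marker list. Neighbouring genes, PNPLA4, RDH5, SPP1 and PLAAT4 were added afterwards.

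Replicate numbers from the titles were checked for pairing: across genes, deviations from the group means had a Pearson's r of 0.206, 0.137 and 0.104 for libraries sharing a number and of -0.172 to 0.0954 for others. All same-numbered pairs exceed 0.1, the limit used, but the lowest of them is close to the highest of the others. These values do not settle whether the libraries were paired. Results are from the fit without the block unless the block is named. Replicates all differed by more than sampling noise (chi-square per gene from 4.99 to 47.8, lowest between replicates 2 and 3).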

Additional observations from a re-analysis of the deposited data

How the results depend on the processing

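With the replicate block 5163 genes passed in place of 4584, the 8 members kept 6 calls, and among the other retinoid and vitamin D genes named only ALDH1A1 and RDH5 changed their call, both newly passing. Leaving out libraries gave 2621 (without GCA 3) to 7419 (without replicate 1 of both groups) calls over all genes, 6707 without CON 1 and 3029 without CON 2, 4 to 6 among members, 6 to 19 among other retinoid genes (14 without CON 1) and 3 to 6 among other vitamin D genes; fewer libraries and fewer degrees of freedom enter these fits. Correcting for GC and length gave 3750 calls, 1432 of them higher and 2318 lower, against 2307 and 2277.

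Among members and other pathway genes named, signs turned only for genes that did not pass as reported, nor where they turned. With the correction, alone and then with the block, the log2 values were -0.12 and -0.14 for DHRS3, -0.21 and -0.21 for CYP26B1, -0.15 and -0.15 for RARA, -0.19 and -0.19 for RXRB, and -0.044 and -0.035 for CYP27B1. CYP26B1 was also at -0.0060 with library size only, -0.0050 on log2(FPKM + 1), -0.05 without CON 1 and -0.11 without GCA 3, and its leave-out values ran to 0.18. Of the markers, KRT19 turned from 0.17 to -0.35 with the correction and -0.35 with the block added, passing in both, PDGFRB to 0.04 without CON 2, 0.09 without GCA 2 and 0.13 without GCA 3 (its lowest value without a single library was -0.91), and KRT10 to 0.10 without CON 1 and 0.11 without replicate 1 of both groups. The causes were not tested. Of 136 alternative values of the 8 members, 123 kept direction and side of the threshold, 5 fell short of it and 8 turned sign. Of 304 for the 18 other named genes, 276 kept both, 16 fell short, 6 newly passed and 6 turned sign. Added after seeing the data, 97 of 117 values kept both and 20 fell short for the 7 neighbours, 146 of 185 kept both, 23 fell short, 9 newly passed and 7 turned sign for the 11 markers, and 41 of 50 kept both and 9 newly passed for PNPLA4, RDH5 and SPP1. ISLR and CCDC33 dropped out under the stricter filter. STRA6 is limited by its 2 to 8 counts per CON library.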
